A study of Drosophila melanogaster with 6 samples.

Results

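The homeotic genes lab, pb, Dfd, Scr and Antp of the Antennapedia complex and Ubx, abd-A and Abd-B of the bithorax complex were taken by symbol from a table of nascent transcription in Drosophila melanogaster embryos. They are 8 of the 17753 genes in the table, and all 8 were among the 10429 genes with enough reads to be tested. Nascent RNA was measured by GRO-seq, in which isolated nuclei extend the RNA that polymerase is already making in the presence of a labelled nucleotide, so that reads fall over the whole transcribed gene, introns included. Embryos were hand-picked at stage 5, the cellular blastoderm, when the zygotic genome is activated. Ctrl embryos (genotype label t180) came from mothers with a TRiP line control, and DomKD embryos (label t216) from mothers with an shRNA against Domino. Per the study's methods, shRNA lines were crossed to the driver mat-alpha-Gal4, which is active in the maternal germline, so that the knockdown acted on what the mother put into the egg. Domino is a chromatin remodelling ATPase that exchanges H2A.Z, a variant of histone H2A, into nucleosomes. Each library came from many embryos pooled, so fewer nuclei transcribing a gene and less transcription per nucleus cannot be told apart.

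There were 3 libraries per group, in 2 unbalanced batches named by a letter in the titles. Batch A has 1 Ctrl (A1) and 2 DomKD libraries (A1 and A2), while batch B has 2 Ctrl (B1 and B2) and 1 DomKD library (B1). The study describes the libraries as biological replicates. Single values are given throughout in the order A1, B1, B2 for Ctrl and A1, A2, B1 for DomKD. Total counts lay between 10660708 and 24537992 per library. The targeted gene dom had 789 ± 72.9 CPM (counts scaled to a common library size) in Ctrl and 774 ± 167 in DomKD (SD, n = 3), a log2 fold change of 0.01 (SE 0.18, adjusted p = 0.973) under TMM, the edgeR scaling that assumes most genes do not change. Scaled on total counts dom was lower by the same test (-0.47, adjusted p = 0.0303, where the median of all tested genes was -0.56), and scaled on a list of Zelda targets it was lower too (-0.995, adjusted p = 7.68e-05, median of all tested genes -1.08). Since the shRNA acts on maternal message, nascent transcription of dom in the embryo does not check the labels. Markers of the labelled stage were present in both groups but not at the same level. The summed level of 7 genes of the cellularising embryo was 10381, 4737 and 3341 CPM in Ctrl and 23455, 21677 and 12677 CPM in DomKD. Sry-alpha was at 0 in all 6 libraries. Within each group batch A lay above batch B, and batch A holds 2 DomKD libraries but 1 Ctrl. The gene slam made the largest part of the sum, with 3641 ± 2547 CPM in Ctrl and 12515.5 ± 4104 in DomKD (SD, n = 3). The summed level of 9 genes of gastrulation and later was 820, 980 and 930 CPM in Ctrl and 981, 1133 and 1475 CPM in DomKD. For these genes batch B lay above batch A within each group, the reverse of the genes of the cellularising embryo. Markers of the somatic ovary summed to at most 10.2 CPM, with 4 of 6 under a mean of 1 count, and those of testis, eye and fat body to at most 2.55 CPM, with 0 of 6 tested.

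Homeotic genes encode homeodomain transcription factors that give each segment its identity along the head-to-tail axis. They lie in clusters in which the order of the genes follows the order of the body regions they pattern. In the early embryo gap and pair-rule proteins set where each of them is first transcribed, and later the Polycomb and trithorax groups keep them off or on. The GAGA factor, encoded by Trl, binds GAGAG sequences at many developmental promoters. Zelda, the pioneer factor of genome activation, binds CAGGTAG, and TATCGATA is the DRE motif of many housekeeping promoters.

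The promoters of the 8 genes were read from the genome to show which of these motifs lie at their start sites, as matches of letters on both strands and not as sites of binding. GAGAG lay in the window from 250 bases before to 50 bases after the most upstream annotated start site in 7 of the 8 genes, all but Abd-B. Counting all 19 annotated start sites, 16 windows and at least 1 window of each of the 8 genes held it. Over 13827 protein-coding genes, each at its most upstream start site, 29.7% of the windows held GAGAG, and the share was 30.5% among the tested genes. CAGGTAG and TATCGATA were in 0 of the 19 windows, beside 1.63% and 9.28% of the coding promoters, so at these low shares a count of 0 in 8 genes describes the windows and no more.

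The windows below show how the GAGAG letters are arranged at 5 genes, with Abd-B as the one without a match at its most upstream site. Sequences are from the RefSeq dm6 assembly (Release 6), 5′ to 3′ on the strand of the gene, with each GAGAG or its reverse complement CTCTC in capitals. They run from 100 bases before to 50 after the start site, except for abd-A, whose matches lie farther upstream and which is shown over the whole window of 300 bases.
Dfd: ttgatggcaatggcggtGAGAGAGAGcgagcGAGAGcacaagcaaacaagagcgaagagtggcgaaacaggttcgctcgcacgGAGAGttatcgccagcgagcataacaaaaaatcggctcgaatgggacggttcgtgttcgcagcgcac
Scr: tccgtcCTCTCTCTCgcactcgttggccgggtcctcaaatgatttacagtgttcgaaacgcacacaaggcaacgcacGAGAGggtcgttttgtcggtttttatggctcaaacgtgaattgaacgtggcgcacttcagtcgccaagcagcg
Ubx: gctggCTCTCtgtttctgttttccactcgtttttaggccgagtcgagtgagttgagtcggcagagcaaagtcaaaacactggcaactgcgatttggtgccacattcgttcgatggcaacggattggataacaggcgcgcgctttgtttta
lab: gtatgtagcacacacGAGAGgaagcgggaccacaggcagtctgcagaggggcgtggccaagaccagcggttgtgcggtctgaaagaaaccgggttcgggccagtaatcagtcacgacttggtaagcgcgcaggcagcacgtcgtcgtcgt
abd-A: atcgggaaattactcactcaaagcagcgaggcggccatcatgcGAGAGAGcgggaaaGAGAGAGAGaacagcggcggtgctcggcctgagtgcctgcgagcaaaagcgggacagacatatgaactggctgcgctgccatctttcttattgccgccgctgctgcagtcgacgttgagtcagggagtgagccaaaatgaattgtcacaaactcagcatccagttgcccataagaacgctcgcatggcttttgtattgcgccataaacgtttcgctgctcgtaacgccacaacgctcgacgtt
Abd-B: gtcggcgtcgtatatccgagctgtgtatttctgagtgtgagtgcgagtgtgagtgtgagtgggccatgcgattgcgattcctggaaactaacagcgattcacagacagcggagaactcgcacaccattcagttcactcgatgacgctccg

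The windows are chr3R:6791736-6791885 on the plus strand for Dfd and, on the minus strand, chr3R:6849932-6850081 for Scr, chr3R:16734377-16734526 for Ubx, chr3R:6678541-6678690 for lab, chr3R:16830000-16830299 for abd-A and chr3R:16972187-16972336 for Abd-B. Overlapping matches were counted separately. Dfd had 6 matches in its 300 bases, Scr and abd-A had 5 each and Ubx had 4, while lab, pb and Antp had 1 each. The matches of Dfd and Scr included overlapping runs close to the start site, and those of abd-A lay in a pair of runs about 200 bases upstream. Abd-B had no match at its most upstream site or at the next one, and 1 to 4 matches at each of the other 4 of its 6 start sites.

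All 8 genes had reads in every library at stage 5. No background level was measured, so for pb, with 102 to 189 reads per library, transcription in every library is not shown. Since the genes differ in length, levels were divided by the kilobases of the whole annotated gene. Reads were not assigned to start sites, of which Antp has 3 and Abd-B 6. Where only part of a gene was transcribed, this measure understates the level of that part. The order in Ctrl ran from Dfd with 9.44 ± 0.767 CPM per kb through Antp with 7.81 ± 0.382, abd-A with 6.58 ± 0.476 and Ubx with 5.59 ± 0.550. Below them lay lab with 1.93 ± 0.494, Scr with 1.28 ± 0.330, Abd-B with 0.921 ± 0.132 and pb with 0.179 ± 0.0496 (SD, n = 3 for all 8). Neighbours in this order did not overlap in their 3 library values, except lab with Scr and Scr with Abd-B. The 4 genes at the top lay between the 42.1 and 52.4 percentiles of the levels per kb of all tested genes in Ctrl, and pb lay at the 6.002 percentile. In DomKD Dfd was again at the top with 13.2 ± 4.39 CPM per kb, and the order went on with abd-A at 11.02 ± 4.10, Antp at 10.2 ± 2.66 and Ubx at 8.65 ± 0.567, 4 genes whose neighbours overlapped. Below them lab had 3.64 ± 1.32, Scr 2.17 ± 0.549, Abd-B 1.83 ± 0.233 and pb 0.430 ± 0.177 CPM per kb, with an overlap between Scr and Abd-B. The colinear order of the genes on the chromosome was not the order of their levels in either group.

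**Figure D1:**
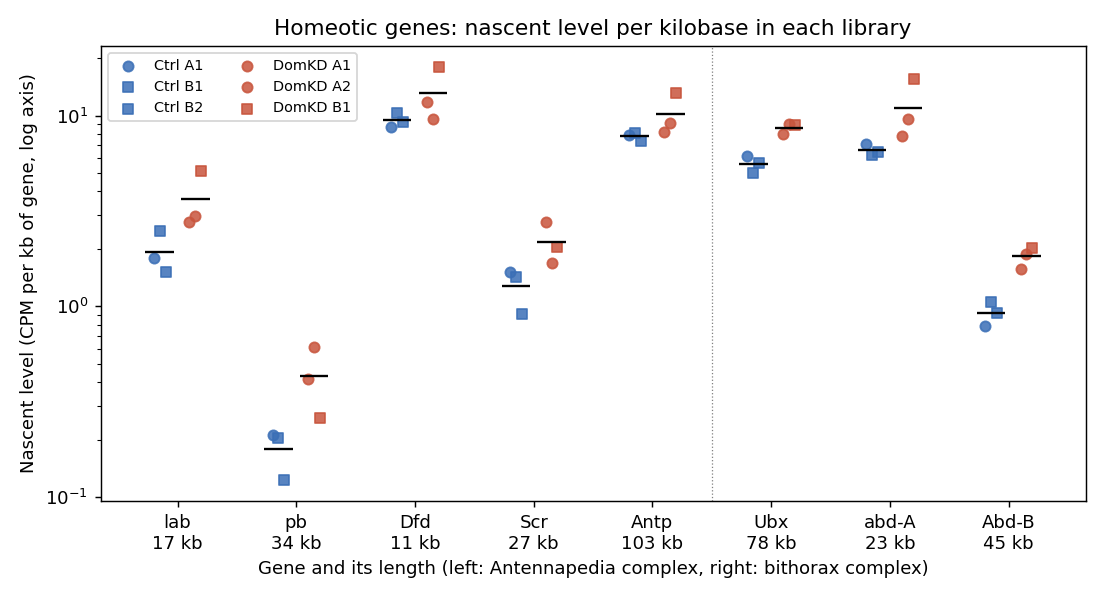
Nascent level of each homeotic gene in CPM per kilobase (log axis) in each library, Ctrl in blue and DomKD in red, circles for batch A and squares for batch B, with a bar at the mean of 3 libraries. Dfd, Antp, abd-A and Ubx form an upper group at 5.02 CPM per kb or more in every library, and pb lies lowest at 0.122 to 0.612.

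Under TMM scaling 5 of the 8 homeotic genes were higher in DomKD (lab, Dfd, Ubx, abd-A and Abd-B), 0 were lower and pb, Scr and Antp did not pass the edgeR test at an adjusted p of 0.05. The rise ran from 1.50-fold for Dfd to 2.12-fold for Abd-B. The median log2 fold change of the 8 was 0.74, beside -0.07 over all tested genes. Among all tested genes 21.7% were called, 12.1% as higher and 9.64% as lower. All 3 DomKD libraries lay above all 3 Ctrl libraries for 7 of the 8, all but Dfd, where 17.2% of all tested genes showed that pattern and 23.4% the opposite one. The homeotic genes are long, from 10.6 kb for Dfd to 103 kb for Antp, and calls of higher genes were more common among long genes: of 1867 tested genes of at least 10 kb, 23.1% were called higher and 8.19% lower, with a median log2 fold change of 0.42. All 3 bithorax genes and 2 of the 5 Antennapedia genes were called, a difference that was not tested.

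These directions hold relative to the typical gene and depend on how the libraries are scaled. With total counts 0 of the 8 genes were higher or lower and their median log2 fold change was 0.26, and with scaling on a list of 44 tested Zelda targets, after the study's practice of scaling on such genes, 0 were higher, Antp (-0.56, adjusted p = 0.00561) and Ubx (-0.40, adjusted p = 0.0344) were lower, and the median was -0.28. The median of all tested genes moved likewise, from -0.07 under TMM to -0.56 under total counts and -1.08 under Zelda scaling, and the calls over all genes went from 1259 higher and 1005 lower to 538 and 2747 and to 76 and 4768. The median of the homeotic genes stood above that of all tested genes by 0.82, 0.81 and 0.81 on the log2 scale. A change of scaling shifts all genes nearly alike, so these values repeat the same difference. Under TMM the median of tested genes of at least 10 kb was 0.42. Of the 44 Zelda targets themselves 40 were higher and 0 lower under TMM, with a median of 1.01. The summed stage markers moved with the groups in the same direction. Between the batches those of the cellularising embryo were higher in A and those of gastrulation and later higher in B. The part of either in the result was not tested.

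**Figure D2:**
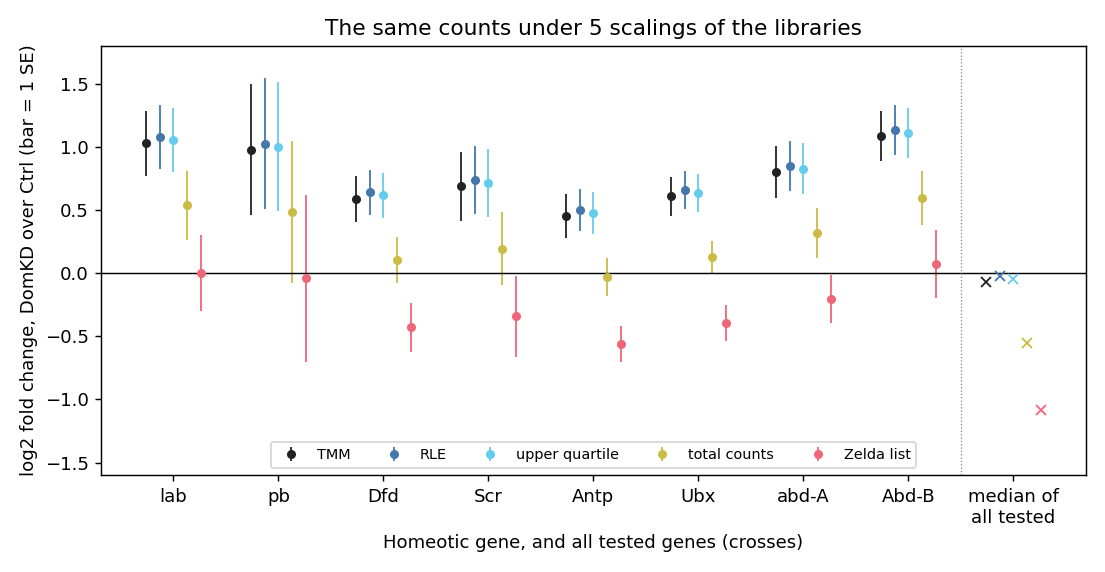
log2 fold change of DomKD over Ctrl for each homeotic gene under 5 scalings of the same counts (points, bars of 1 SE) and the median of all tested genes (crosses). TMM, RLE and upper quartile give nearly the same values, total counts and the Zelda list shift every gene and the median of all tested genes (-0.07, -0.56 and -1.08 for TMM, total counts and the Zelda list) down together.

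The gene lab (FBgn0002522, chr3R:6661427-6678590, minus strand, 17.2 kb), which patterns the intercalary segment of the head and part of the midgut, had 30.9, 26.0 and 42.5 CPM in the Ctrl libraries. In the DomKD libraries it had 47.7, 51.1 and 88.4 CPM. The groups did not overlap, and DomKD B1 stood well above the rest. DomKD exceeded Ctrl by a log2 fold change of 1.03 (SE 0.26, adjusted p = 0.0149), 0.68 within batch A and 1.41 within batch B. The call was lost without Ctrl A1 (adjusted p = 0.0655), Ctrl B1 (0.0554) or DomKD B1 (0.336), and the adjusted p ran from 6.87e-04 to 0.995 over all alternatives.

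The values of pb (FBgn0051481, chr3R:6707800-6742063, minus strand, 34.3 kb), known for its role in the adult mouthparts, rested on 102 to 189 reads per library, the fewest of the 8. The level of pb was 7.23, 4.18 and 7.00 CPM in the Ctrl libraries and 14.3, 21.0 and 8.90 CPM in the DomKD libraries. All DomKD values lay above all Ctrl values, but DomKD B1 was the lowest of the 3, the reverse of its place for lab. The log2 fold change of 0.98 (SE 0.52, adjusted p = 0.208) did not pass the test. Batch A alone gave 1.25 and batch B alone 0.70.

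Dfd (FBgn0000439, chr3R:6791836-6802428, plus strand, 10.6 kb), which specifies the mandibular and maxillary segments, is the shortest of the 8 and the only one on the plus strand. It had 92.8, 98.2 and 108.8 CPM in the Ctrl libraries and 124.7, 101.8 and 191.4 CPM in the DomKD libraries. The groups overlapped, since DomKD A2 lay below Ctrl B2. Its log2 fold change was 0.59 (SE 0.18, adjusted p = 0.0399), 0.28 within batch A and 0.89 within batch B. Its call was the one nearest the threshold and was lost without Ctrl A1 (adjusted p = 0.0660), Ctrl B1 (0.124), Ctrl B2 (0.109) or DomKD B1 (0.499), in a range of 0.0134 to 0.719 over all alternatives.

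Scr (FBgn0003339, chr3R:6823120-6849981, minus strand, 26.9 kb), which specifies the labial and the first thoracic segments and the salivary gland, had 40.8, 24.3 and 38.2 CPM in the Ctrl libraries. Its DomKD values were 74.5, 45.5 and 55.1 CPM. No DomKD library overlapped a Ctrl library, though DomKD A2 stood close to Ctrl A1. A log2 fold change of 0.69 (SE 0.27, adjusted p = 0.0927) did not pass, and batch A gave 0.51 and batch B 0.85. It passed without DomKD A2 (adjusted p = 0.0397) and without a count filter (0.67, adjusted p = 0.0460), in a range of 0.0397 to 0.667 over all alternatives. A pair of noncoding genes on the same strand, both at 0 in all libraries, covers 3.48% of Scr, so its reads are uncertain there.

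Antp (FBgn0260642, chr3R:6896253-6999228, minus strand, 103 kb), the selector gene of the second thoracic segment, gave the most reads of the 8, with 7557 to 21729 per library. It had 812, 762 and 840 CPM in the Ctrl libraries and 843, 945 and 1359 CPM in the DomKD libraries. DomKD A1 lay just above the highest Ctrl library. The log2 fold change of 0.45 (SE 0.18, adjusted p = 0.0883) did not pass the test and was the smallest of the 8, with 0.14 within batch A and 0.76 within batch B. It passed with RLE scaling (0.50, adjusted p = 0.0497), a mean of at least 50 counts (0.0492) and DESeq2 (0.0100), and with the Zelda list it was called lower, in a range of adjusted p from 0.00561 to 0.902. One noncoding gene on the same strand, at 0 in all libraries, covers 1.21% of Antp, where reads are uncertain in the same way as for Scr.

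Ubx (FBgn0003944, chr3R:16656623-16734426, minus strand, 77.8 kb), which specifies the third thoracic and the first abdominal segments, showed little spread within either group. It had 476, 437 and 391 CPM in the Ctrl libraries and 622, 704 and 692 CPM in the DomKD libraries. Every DomKD library lay well above every Ctrl library. In the fit its log2 fold change was 0.61 (SE 0.16, adjusted p = 0.0163), 0.47 within batch A and 0.74 within batch B. The call was lost without Ctrl A1 (adjusted p = 0.0800), DomKD A2 (0.0599) or DomKD B1 (0.201), in a range of 1.59e-05 to 0.484, and Ubx was called lower with the Zelda list.

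The gene abd-A (FBgn0000014, chr3R:16807214-16830049, minus strand, 22.8 kb), which specifies abdominal segments, differed most between the batches. Its level was 162, 148 and 141 CPM in the Ctrl libraries and 179, 218 and 357 CPM in the DomKD libraries. The groups did not overlap, and DomKD B1 was far above the other libraries. The fitted log2 fold change was 0.80 (SE 0.21, adjusted p = 0.0183), 0.28 within batch A and 1.31 within batch B. The difference between batches was 1.02 (unadjusted p = 0.00850, adjusted p = 0.815). No homeotic gene and 0 of all tested genes passed this edgeR test of the batch difference after adjustment, while 608 genes (5.83%) had an unadjusted p under 0.05. The call of abd-A was lost without Ctrl B1 (adjusted p = 0.0781), Ctrl B2 (0.0657) or DomKD B1 (0.438), in a range of 2.21e-04 to 0.440.

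Abd-B (FBgn0000015, chr3R:16927212-16972236, minus strand, 45.02 kb), which specifies the posterior abdomen, had the largest fitted change of the 8 under TMM. It had 35.5, 41.7 and 47.3 CPM in the Ctrl libraries and 70.8, 84.4 and 91.4 CPM in the DomKD libraries. The groups lay apart by a wide margin. The log2 fold change was 1.08 (SE 0.20, adjusted p = 0.00324), and the values within batches were alike at 1.12 in batch A and 1.04 in batch B. The call was lost without Ctrl A1 (adjusted p = 0.0633) or DomKD B1 (0.0808), in a range of 5.56e-06 to 0.871, while its log2 fold change stayed between 0.98 and 1.14 without any 1 library.

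**Figure D3:**
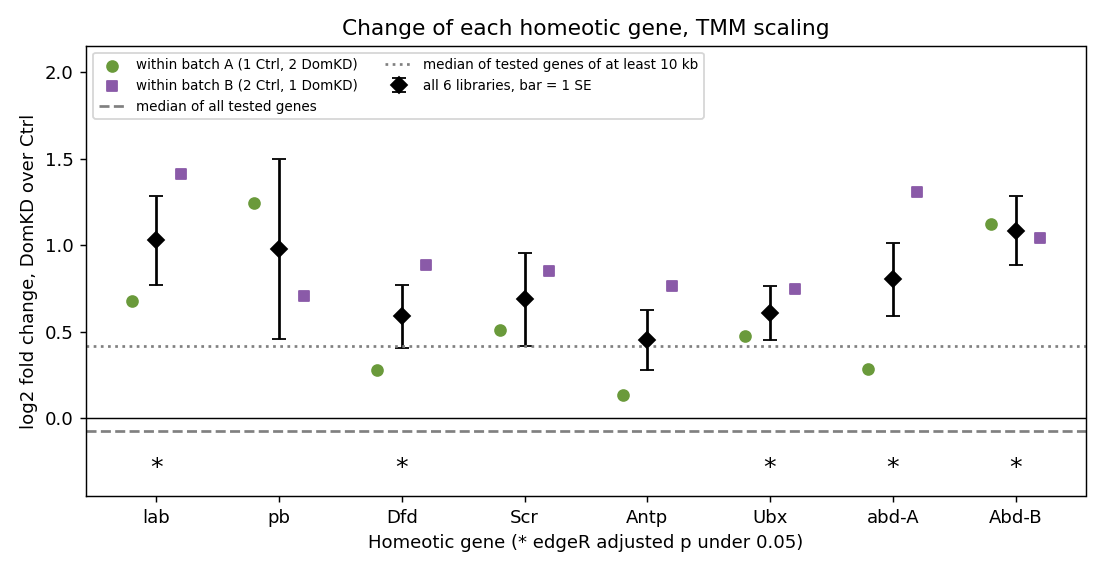
log2 fold change of DomKD over Ctrl for each homeotic gene under TMM, from all 6 libraries (diamonds, bars of 1 SE) and within each batch (circles batch A, squares batch B), with the medians of all tested genes (-0.07) and of those of at least 10 kb (0.42). Batch B gave the larger value for 6 of the 8 genes, and pb and Abd-B had the larger value in batch A.

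The calls fell most without DomKD B1. Without it 0 of the 8 genes were higher and their median was 0.52, but only 6 genes were higher and 3 lower of 10450 tested, so few calls remained for any gene. The number higher was 1 without Ctrl A1, 2 without Ctrl B1, 3 without Ctrl B2 and 5 without DomKD A1 or DomKD A2. DomKD B1 is the only DomKD library of batch B, and Ctrl A1 the only Ctrl library of batch A. Without either of them the groups were compared within 1 batch alone. For these calls the weight of the library and that of the unbalanced design cannot be told apart.

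To compare the genes with each other free of any scaling, the counts of each were taken as a share of the counts of all 8 in the same library. The 8 genes together made up 0.163% to 0.241% of a library's counts. Antp took 49.0%, 49.5% and 52.0% of the homeotic counts in the Ctrl libraries and 42.6%, 43.5% and 47.8% in the DomKD libraries. All DomKD shares of Antp lay below all Ctrl shares, with a difference of -5.48 percentage points in the mean (exact permutation test, two-sided, p = 0.1, the smallest the 20 arrangements allow, adjusted p = 0.4 over the 8 genes), with -5.89 within batch A and -2.92 within batch B. Abd-B took 2.14%, 2.71% and 2.93% in Ctrl and 3.58%, 3.89% and 3.22% in DomKD. Its DomKD shares lay above its Ctrl shares by 0.971 percentage points (exact permutation p = 0.1, adjusted p = 0.4), with 1.60 within batch A and 0.398 within batch B. For the other 6 genes the shares of the groups overlapped, from exact p = 0.3 for lab and pb to 0.7 for Scr. On the log2 ratio of counts to Antp, Abd-B was higher by 0.64, lab by 0.53 and abd-A by 0.33 with no overlap of the groups (exact permutation p = 0.1 each, unadjusted). The ratios of pb, Dfd, Scr and Ubx overlapped. Within batches A and B the differences were 0.99 and 0.28 for Abd-B, 0.54 and 0.65 for lab and 0.15 and 0.54 for abd-A. Antp had the smallest fitted change of the 8, so ratios to it rise by this choice and largely repeat its share. The permutations took no account of batch.

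**Figure D4:**
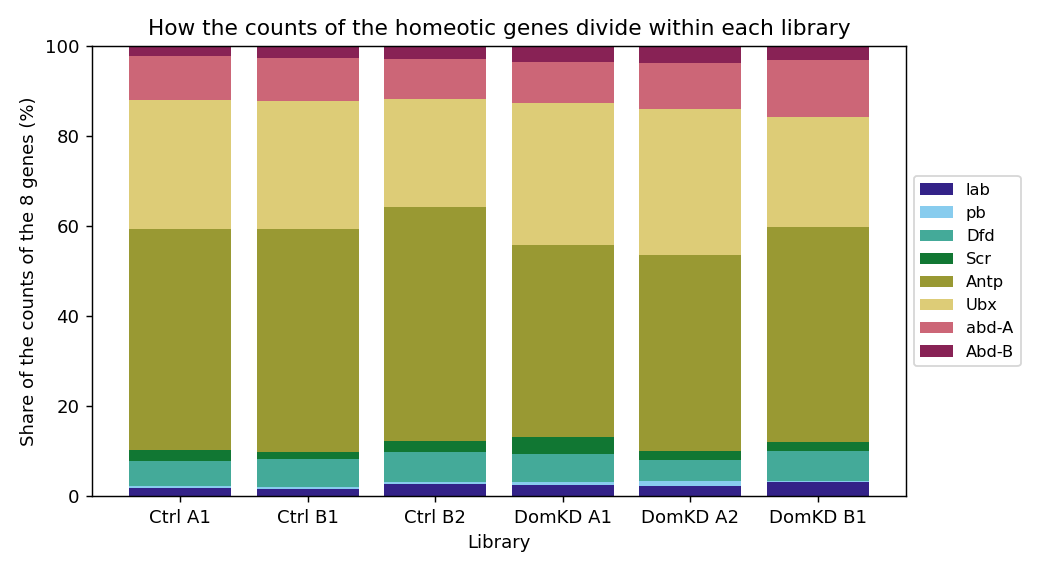
Share of each homeotic gene in the summed counts of the 8 genes (stacked bars, percent) in each of the 6 libraries. Antp (49.0% to 52.0% in Ctrl, 42.6% to 47.8% in DomKD) and Ubx hold most of the counts in every library.

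Across the 6 libraries the 28 pairs of homeotic genes had correlations of log2 CPM from 0.14 to 0.97 with a median of 0.72. After the mean of each group was taken off, they ran from -0.77 to 0.96 with a median of 0.16. These correlations are a description over 6 libraries that share their scaling and batches. By the same measure over 7375 tested genes averaging 100 counts or more, the genes most like each member were lncRNA:CR43617 (r = 0.999) for Ubx, lute (0.998) for Abd-B, RpL39 (0.998) for pb, CG6966 (0.998) for Antp, p115 (0.996) for abd-A, asRNA:CR45126 (0.994) for Dfd, tRNA:Leu-CAG-1-4 (0.994) for lab and ND-39 (0.988) for Scr. The gene lncRNA:CR43617 lies in the bithorax complex, between abd-A and Abd-B. With 6 libraries such values are common: 15 to 273 candidates had r over 0.95 with a given member.

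The other genes of both complexes were examined next. Of 51 annotated genes between lab and Antp or between Ubx and Abd-B other than the homeotic ones, 30 were tested, and 14 were higher, 0 lower and 16 not past the test under TMM, with a median log2 fold change of 1.08. With total counts 7 of 25 in the Antennapedia complex and 3 of 5 in the bithorax complex were higher. With the Zelda list 1 and 0 were higher and 2 and 0 lower. Over all tested genes 12.1% were higher and 9.64% lower under TMM, and 5.16% were higher under total counts. Under Zelda scaling 0.729% of all tested genes were higher and 45.7% lower. Of 8 tested coding neighbours 5 were higher under TMM. These were zen (log2 fold change 1.33, SE 0.18, adjusted p = 9.59e-04), which patterns dorsal tissues, its duplicate zen2 (1.07, adjusted p = 0.00425, groups overlapping), the anterior determinant bcd (2.24, adjusted p = 0.00809), the pair-rule gene ftz (1.14, adjusted p = 0.00191) and Ama (1.04, adjusted p = 0.00148), which encodes a secreted immunoglobulin-domain protein. zen rose from 660, 342 and 245 CPM in the Ctrl libraries to 1898, 1596 and 699 CPM in the DomKD libraries. Only 1.79 to 6.95 CPM of bcd, a maternal message, were seen in Ctrl, and 16.0 to 26.0 CPM in DomKD. With the Zelda list none of the 5 passed: zen had 0.32 (adjusted p = 0.113), zen2 0.05 (adjusted p = 0.902), bcd 1.22 (adjusted p = 0.119), ftz 0.14 (adjusted p = 0.402) and Ama 0.04 (adjusted p = 0.881). The cuticle genes between lab and pb had few reads: 6 of the 14 other coding genes of the Antennapedia complex were not tested.

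Some noncoding genes of the complexes had higher levels per kilobase than the homeotic genes beside them. In the bithorax complex lncRNA:bxd, which lies upstream of Ubx, had 27.6 ± 2.94 CPM per kb in Ctrl and 53.04 ± 7.91 in DomKD (SD, n = 3), where Ubx had 5.59 and 8.65. Its log2 fold change under TMM was 0.97 (SE 0.18, adjusted p = 0.00347), 0.49 (adjusted p = 0.0243) under total counts and -0.04 (adjusted p = 0.881) under Zelda scaling. The long transcript lncRNA:iab8, which runs for 92.1 kb between abd-A and Abd-B, had 5.61 ± 0.699 CPM per kb in Ctrl and 11.02 ± 2.46 in DomKD. It did not exceed abd-A, with 6.58 and 11.02, but stood above Abd-B, with 0.921 and 1.83. The log2 fold change of lncRNA:iab8 was 0.99 (adjusted p = 0.00440) under TMM, 0.51 (adjusted p = 0.0373) under total counts and -0.01 (adjusted p = 0.962) under Zelda scaling. On the opposite strand within it, lncRNA:iab4 had 54.4 ± 3.48 and 96.8 ± 33.5 CPM per kb (0.94, adjusted p = 0.00510) and lncRNA:CR43617 had 20.4 ± 3.88 and 56.4 ± 7.76 (1.44, adjusted p = 7.83e-04). With total counts lncRNA:iab4 did not pass (0.46, adjusted p = 0.0663) and lncRNA:CR43617 did (0.96, adjusted p = 0.00251), and with the Zelda list neither passed (-0.07, adjusted p = 0.802, and 0.44, adjusted p = 0.0680). In the Antennapedia complex lncRNA:CR42651, whose span holds mir-10, stood at 188.5 ± 25.8 CPM per kb in Ctrl and 423 ± 8.03 in DomKD, and its log2 fold change was 1.14 (SE 0.17, adjusted p = 0.00136) under TMM, 0.66 (adjusted p = 0.00280) under total counts and 0.14 (adjusted p = 0.384) under Zelda scaling. The other noncoding genes called higher were lncRNA:CR44931 (1.03, adjusted p = 0.00128), lncRNA:CR45593 (1.60, adjusted p = 0.0151), tRNA:Lys-TTT-2-1 (1.50, adjusted p = 0.0191) and lncRNA:CR45915 (4.90, adjusted p = 0.0193), the last with 0 reads in Ctrl B1 and B2. The microRNA genes mir-10, mir-993, mir-iab-4 and mir-iab-8 were listed at 0 in all 6 libraries. Each lies inside a longer noncoding gene on the same strand. Reads shared with the longer gene may have been left uncounted, so these zeros do not show that the loci were silent. Counting by strand kept lncRNA:iab4 apart from lncRNA:iab8.

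**Figure D5:**
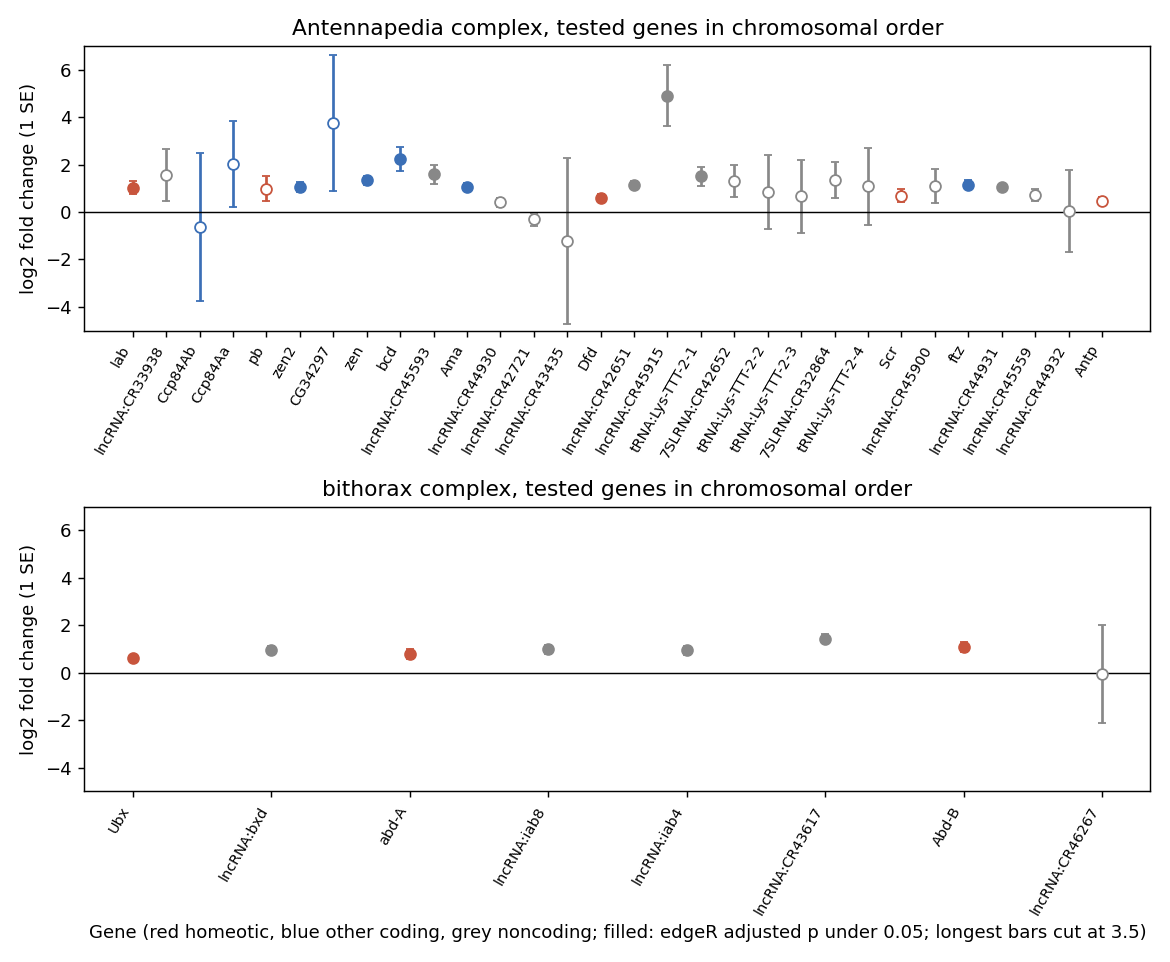
log2 fold change of DomKD over Ctrl under TMM for every tested gene of the Antennapedia complex (top) and the bithorax complex (bottom) in chromosomal order, homeotic genes in red, other coding genes in blue and noncoding genes in grey, with bars of 1 SE and filled points for adjusted p under 0.05. All filled points lie above 0, and the open points with long bars are genes with few reads.

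Genes that act with or on the homeotic genes were counted from lists written for this purpose. Of 9 gap and maternal inputs 8 were higher under TMM with a median log2 fold change of 1.24. Among them were cad (1.77, adjusted p = 6.84e-04, groups overlapping), which activates posterior patterning genes, tll (1.42, adjusted p = 7.98e-04) of the embryo's ends and hkb (1.24, adjusted p = 0.00119). The exception was nanos (0.19, adjusted p = 0.970). All 8 pair-rule genes tested were higher with a median of 0.88, for example ftz (1.14), run (1.01, adjusted p = 0.00215) and eve (0.98, adjusted p = 0.00223). Of these genes 6 of the 9 gap and maternal inputs and 7 of the 8 pair-rule genes are also on the Zelda list, of which 40 of 44 were higher, so these counts largely repeat that one. ftz and eve are among the stage markers that moved with the groups. The counts of higher genes stood at 7 and 5 under total counts. Under Zelda scaling 2 gap and maternal inputs were higher and 2 pair-rule genes lower. Of all tested genes 12.1% were higher under TMM and 5.16% under total counts, and under Zelda scaling 0.729% were higher and 45.7% lower.

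The homeodomain cofactors exd and hth, whose products bind DNA together with homeotic proteins, did not pass the test under TMM. exd had 97.9 ± 28.9 CPM in Ctrl and 116 ± 12.4 in DomKD (log2 fold change 0.18, adjusted p = 0.623), and hth had 4498 ± 767 and 6728 ± 180 CPM (0.55, adjusted p = 0.0549). hth passed as higher with RLE (0.59, adjusted p = 0.0314) and upper quartile scaling (0.57, adjusted p = 0.0419). With the Zelda list both were lower (-0.81, adjusted p = 0.0171, and -0.46, adjusted p = 0.00225), where the median of all tested genes was -1.08. Of the 6 cofactors tested 1 (16.7%) was higher, disco (0.95, adjusted p = 0.00932), beside 12.1% of all tested genes, and the median was 0.53. With total counts 0 of the 6 were higher or lower with a median of 0.05, and disco had 0.47 (adjusted p = 0.119). With the Zelda list 0 were higher and 3 (50%) lower, beside 45.7% of all tested genes lower, with a median of -0.48. There disco had -0.06 (adjusted p = 0.876). Of 10 genes listed as targets of homeotic proteins 7 (70%) were higher under TMM, beside 12.1% of all tested genes, with a median of 0.85. They included dpp (1.21, adjusted p = 8.72e-04), fkh (1.32, adjusted p = 0.00126), which Scr activates in the salivary gland, and btd (0.97, adjusted p = 0.00168). dpp and btd are also on the Zelda list. Whether homeotic proteins act on any of the listed genes at stage 5 was not tested. With total counts 4 (40%) were higher, beside 5.16% of all tested genes. With the Zelda list 0 were higher and 1 (10%) lower, beside 0.729% and 45.7% of all tested genes.

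The Polycomb and trithorax groups hold the maintenance factors of homeotic transcription. Of 23 Polycomb group genes tested 5 (21.7%) were higher and 4 (17.4%) lower under TMM, beside 12.1% and 9.64% of all tested genes, with a median of -0.09. They included jing (1.09, adjusted p = 0.00138) and Su(z)12 (0.87, adjusted p = 0.00220), a subunit of the complex that methylates histone H3, among the higher and crm (-1.63, adjusted p = 0.00289) among the lower. Of 18 trithorax group genes 2 (11.1%) were higher, psq (0.68, adjusted p = 0.0144) and trx, and 3 (16.7%) lower with a median of -0.10, beside the same 12.1% and 9.64%. The lower ones included the chromatin remodelling subunits brm (-1.49, adjusted p = 6.59e-04) and Snr1 (-2.13, adjusted p = 0.00298). With total counts the Polycomb group had 2 higher and 10 lower and the trithorax group 0 higher and 13 lower, where 26.3% of all tested genes were lower. With the Zelda list 17 and 16 were lower, where 45.7% of all tested genes were. The directions of crm, brm and Snr1 were the same in all 3 scalings, whereas Su(z)12 (-0.14) and psq (-0.33) turned with the Zelda list.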

How the data were processed

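The authors deposited raw counts of reads per gene and strand with a gene length, made with cutadapt 2.5, UMI-tools 1.0, Bowtie2 and featureCounts on dm6. Per the study's methods reads with a low mapping quality were dropped and duplicates kept, so tRNA, 7SL and other repeated genes are uncertain and reads are not independent molecules. All 6 count columns were matched by title and 0 belong to other samples. Of 17753 genes 17626 were matched to Ensembl release 115 names, and the length equalled the annotated span for 99.31% of them.

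Genes averaging 10 or more counts were tested with edgeR 4.0.16 in R 4.3.3 (glmQLFit, robust, glmQLFTest, two-sided, TMM) with group and batch as terms, and p-values were adjusted after Benjamini-Hochberg over all of them, at a threshold of 0.05. An SE is the log2 fold change over the root of its F, CPM use TMM library sizes, log2 CPM a prior count of 2. Within-batch values are differences of mean log2 CPM. Alternatives were other scalings (RLE, upper quartile, total counts, a list of Zelda targets written from general knowledge, 44 of 46 tested), count filters, other designs, DESeq2 1.42.0 and each library left out. It was tested on simulated counts. No pair of libraries agreed within sampling noise (squared deviation at least 33.8 times Poisson). Promoters came from the RefSeq dm6 genome at Ensembl start sites, where 99.83% of start codons read ATG.

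The members, lists, tests and named genes were chosen with earlier results of these data known. Named are the 8 members, genes of both complexes past the test, at most 3 genes per list with the smallest adjusted p (exd and hth regardless), and the most similar genes. trx, nanos and 4 microRNA genes fall outside this rule and were named after their values were seen. The targeted gene dom and the stage markers slam and Sry-alpha fall outside it too. Proteins were not used here.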

Additional observations from a re-analysis of the deposited data

How the results depend on the processing

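The number of homeotic genes higher was 6 with RLE, without a count filter, with a minimum mean of 50 counts and with DESeq2, and 5 with upper quartile scaling and with TMM computed without the complexes. It was 0 with total counts, 0 with the Zelda list, 2 without the batch term, 1 with the replicate block (the number of the title in place of batch) and 0 with DESeq2 on Zelda list size factors without batch. Without single libraries it ran from 0 to 5, and their median log2 fold change from 0.52 to 0.82. The number lower was 2 with the Zelda list and 0 otherwise. The median was 0.26 with total counts, -0.28 with the Zelda list, -0.44 with DESeq2 on that list, 0.49 in batch A alone and 0.87 in batch B alone.

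Of 144 tested values of single genes under these alternatives, single batches left out, 96 kept direction and side of the threshold, 29 fell short of it, 5 passed it and 14 reversed. With total counts Antp turned to -0.033. With the Zelda list pb had -0.040, Dfd -0.43, Scr -0.34, Antp -0.56, Ubx -0.40 and abd-A -0.21. With DESeq2 on that list and no batch term lab had -0.30, Dfd -0.73, Scr -0.46, Antp -0.81, Ubx -0.57, abd-A -0.41 and Abd-B -0.27. The median of all tested genes moved likewise, to -0.56 with total counts, -1.08 with the Zelda list and -1.27 in the last fit, in which tool and batch term differed too.

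Whether replicate numbers pair the libraries cannot be told from these values. Deviations of libraries with the same number in the 2 groups correlated from -0.36 to 0.24, and those with different numbers from -0.14 to 0.24. Within a batch the same number gave 0.198 and 0.240 and different numbers gave 0.165 and 0.239. With the number as a block in place of batch the calls over all genes went from 1259 higher and 1005 lower to 610 and 425. They were 894 and 711 when the batch term was only dropped. With the number as a block beside the batch term, an alternative chosen after seeing the data, they were 1174 and 919, and 5 homeotic genes were higher. With 3 libraries per group and 1 control in batch A, single values within a batch have no error, and pb, with at most 189 reads in a library, has the widest SE.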
